A study of Rattus norvegicus with 69 samples.

Results

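The 36 genes described here encode complement, clotting, anticoagulant and fibrinolytic proteins, most of which the liver makes and releases into plasma. They were taken by exact symbol from a table of 38513 gene rows counted in 69 rat liver libraries. All 36 passed the filter on low counts, which left 16676 rows to test, and C5 held 2 rows, so that the 36 genes had 37 rows. The study asked how treatment with liraglutide and PYY3-36, 2 gut hormone-based drugs, compares with Roux-en-Y gastric bypass (RYGB) in the liver of obese rats. The rats were of the Wistar strain, and in the 6 groups that the study describes they were adult males made obese on a high-fat diet, then offered a high-fat and a low-fat diet and fasted overnight before the liver was taken. These groups were RYGB (labelled Bypass, n = 14), sham surgery (n = 12), liraglutide injected under the skin with PYY3-36 from an osmotic minipump (labelled PYY_Lira, n = 11), PYY3-36 with saline injections (n = 5), liraglutide with a saline minipump (n = 5) and saline by both routes (n = 8). A further 8 libraries are labelled BWM and 6 are labelled Lean. The labels give no treatment, diet or age for BWM and Lean, and the study's text does not describe them. In the study 6 of the combination and 3 of the saline animals were fed for longer than the others, and the labels do not say which.

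Complement is a cascade of plasma proteases that marks microbes and damaged cells. The classical and lectin pathways start with recognition proteins and their proteases and the alternative pathway amplifies them. All converge on C3, and then on C5, whose larger fragment joins C6, C7, C8 and C9 into a pore in the target membrane. Clotting runs through a similar chain of proteases to thrombin, which makes fibrin, while antithrombin and the protein C system hold it back and plasmin dissolves the clot. Hepatocytes are the main source of most of these plasma proteins, several of which are acute-phase proteins whose synthesis changes in inflammation.

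Levels are given as CPM after TMM scaling (scaled CPM), and a gene was called changed at an adjusted p under 0.05 in edgeR's quasi-likelihood test over all 16676 rows. Total counts ranged from 9110860 to 27559144 per library, with a median of 21027300. The labels also give a batch, A (41 libraries) or B (28 libraries), without saying what a batch was. All PYY3-36 and liraglutide libraries were in batch B, and all BWM and Lean libraries in batch A, so that batch was a term in the fit. On the first principal component 6 batch B libraries lay apart from the other 63, at 112 to 158.9 against 80.0 or lower, namely sham replicate 12, PYY3-36 replicate 5, liraglutide replicate 4 and liraglutide+PYY3-36 replicates 8, 9 and 11. The 3 batch B RYGB libraries had low totals (9110860 to 13941960), as did liraglutide replicate 2 (12560017), and they held 0.593 to 1.502% of their counts on the mitochondrial chromosome, against at most 0.584% in every other library. The labelled tissue was checked against its markers, and 10 hepatocyte markers summed to 71250 to 463043 scaled CPM in every library, against 0.511 to 26.5 for neutrophil markers.

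The 36 genes took up 2.58 to 4.72% of all counts in a library, with a median of 4.09%. Per kilobase of exon, the scale on which genes can be compared with each other, the mean level over all libraries was highest for Vtn (vitronectin, an inhibitor of the complement pore and a cell adhesion protein) at 2616, Kng1 (kininogen, the source of bradykinin) at 2573 and Serpinc1 (antithrombin) at 2196. The lowest were F5 (factor V, the cofactor of factor X) at 14.9, Masp1 (a protease of the lectin pathway) at 23.3 and F7 (factor VII, which starts clotting with tissue factor) at 27.5. The ratio of the highest to the lowest group mean on this scale was largest in C6 at 3.84 (Lean over RYGB), F13b at 3.18 (PYY3-36 over saline), F5 at 2.78 (RYGB over PYY3-36) and F7 at 2.36 (BWM over liraglutide). It was at most 1.91 in the other 32 members, and 10.9 for a second, shorter row of C5 (BWM over liraglutide). These means were not adjusted for batch. For F5, F7 and the short row they set groups mostly or wholly in batch A against groups wholly in batch B, where all of these rows were lower (log2 differences of -1.77, -1.45 and -3.05). F13b in PYY3-36 held 2490 scaled CPM in replicate 5 and 150 to 307 in the other libraries. Between libraries of the same group the log2 level varied most in F13b (SD 1.02), F7 (0.81), Vtn (0.65) and C1s (0.64), and least in F12 (0.20).

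**Figure D1:**
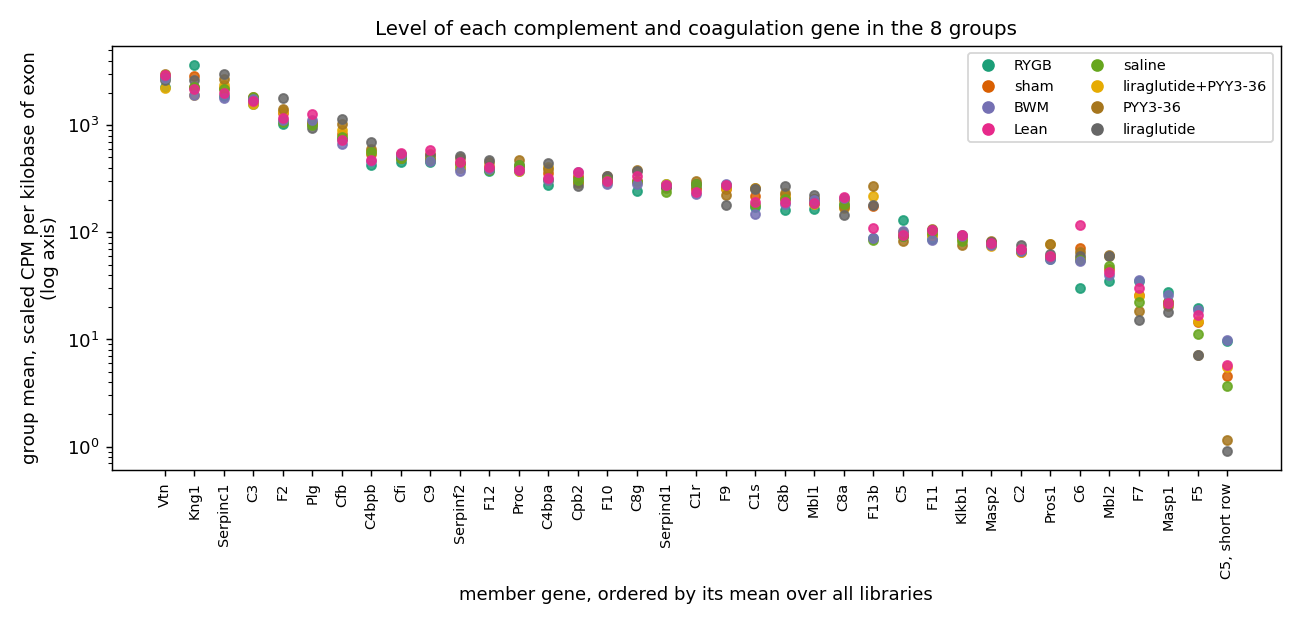
Group mean of scaled CPM per kilobase of exon on a log axis for each of the 36 genes, with the second row of C5 shown separately, ordered by the mean over all libraries and coloured by group. The points of most genes lie close to each other, whereas the short row of C5 spreads the most (10.9-fold, from liraglutide to BWM), followed by C6, from RYGB at the bottom to Lean at the top, and by F13b, F5 and F7. The means are not adjusted for batch.

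Some of these values rest on how reads were assigned. C5, the component that starts the pore, has a row of 4444 exon bases at chr3:14049993-14113931 and a shorter one of 1525 exon bases at chr3:14206466-14229141, both on the minus strand of Rnor_6.0, and the long row is meant by C5 unless the short row is named. The row called Kng1 (chr11:81509185-81516759, 732 exon bases) carries a gene ID that RefSeq now names Kng2, a close relative, and it held fractional counts in 88.41% of libraries, as did C1s. Reads shared with other genes were divided between them, so that levels of Kng1 and C1s are uncertain. Fractional counts were also frequent in Mbl2 and Masp2 (75.36% of libraries each), C3 (56.52%) and C1r (52.17%), and rare in C6 (1.45%). How much of each level came from such reads was not computed.

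In RYGB vs. sham, the gene that stood out was C6, the component that binds the C5 fragment and lets the pore assemble. C6 (gene ID 24237) lies on the plus strand of chromosome 2 at chr2:54460333-54533801 in Rnor_6.0, with 3197 exon bases. Because it is the member that the results turn on, the 250 bases before its start are shown from RefSeq (GRCr8, chr2:55573383-55573632, plus strand), with capitals for a match to TTGCNNAA, a motif of C/EBP factors, which was found on the opposite strand 176 to 169 bases before the start.
C6 promoter: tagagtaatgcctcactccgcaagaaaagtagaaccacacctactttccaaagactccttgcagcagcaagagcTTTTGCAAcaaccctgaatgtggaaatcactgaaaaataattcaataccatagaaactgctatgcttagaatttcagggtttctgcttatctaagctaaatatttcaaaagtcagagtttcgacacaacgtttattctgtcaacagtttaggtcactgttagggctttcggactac
That motif was present in 10.6% of 33469 rat promoters, each of 250 bases before and 50 after the start, and in 10 of the 28 members that have a promoter in the table, so that its presence in C6 is only a description.

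The level of C6 in RYGB was 59.9 scaled CPM at its lowest, 91.0 at the median and 154 at its highest (97.3 ± 29.9, SD, n = 14). In sham it was 86.9, 223 and 419.9 (229.6 ± 90.02, n = 12). The groups overlapped, since 6 of the 14 RYGB libraries lay below every sham library, and the lowest sham library (replicate 9) lay among the RYGB libraries. C6 fell by 1.23 on the log2 scale (SE 0.179, adjusted p = 3.928e-06), to 0.425 of its level in sham. In bulk liver RNA, fewer cells of a type and less RNA per cell cannot be told apart. Within batch A, C6 was 59.9 to 154 in RYGB and 168 to 419.9 in sham, so that there the groups did not overlap, and the log2 fold change was -1.44 (SE 0.181, adjusted p = 4.04e-07, with 1.55% of all genes called). Within batch B it was 78.0 to 93.3 in 3 RYGB libraries and 86.9 to 225 in 5 sham libraries, and the difference of -0.97 did not pass the threshold (adjusted p = 0.0715, with 1.43% of all genes called). The difference between these changes, 0.47, did not pass the test (adjusted p = 0.855).

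Compared to Lean and BWM, C6 was lower in RYGB as well. In Lean it was 301 scaled CPM at its lowest, 351 at the median and 450.3 at its highest (373 ± 62.1, n = 6), and in BWM 123, 185 and 197 (174 ± 26.1, n = 8). All 14 RYGB libraries lay below all 6 Lean libraries, and 10 of the 14 below every BWM library. The log2 fold change was -1.95 in RYGB vs. Lean (SE 0.210, adjusted p = 2.894e-09) and -0.85 in RYGB vs. BWM (SE 0.198, adjusted p = 0.009698). Lean was above sham by 0.71 (SE 0.225), which did not pass (adjusted p = 0.205), and BWM was below sham by 0.39 (adjusted p = 0.9999).

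In saline, C6 was 126 at its lowest, 174 at the median and 227 at its highest (178 ± 31.6 scaled CPM, n = 8). In liraglutide+PYY3-36 it was 80.4, 176 and 318 (185 ± 76.2, n = 11). The 5 PYY3-36 libraries held 164, 181, 232, 232 and 240.0, and the 5 liraglutide libraries 109.7, 133, 226, 234 and 250.5. All 3 drug groups thus overlapped saline. The log2 fold changes against saline were 0.05 in the combination (SE 0.209), 0.22 in PYY3-36 (SE 0.262) and 0.08 in liraglutide (SE 0.262), and none passed the threshold (adjusted p = 0.927, 0.972 and 0.999). Ordered by mean, the groups ran from Lean over sham, PYY3-36 (209.8 ± 34.7), liraglutide (190.6 ± 64.3), the combination, saline and BWM to RYGB. From sham to BWM, neighbours in that order differed by less than 1 SD, and of the 2 steps at the ends, RYGB vs. BWM passed the test and Lean vs. sham did not.

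**Figure D2:**
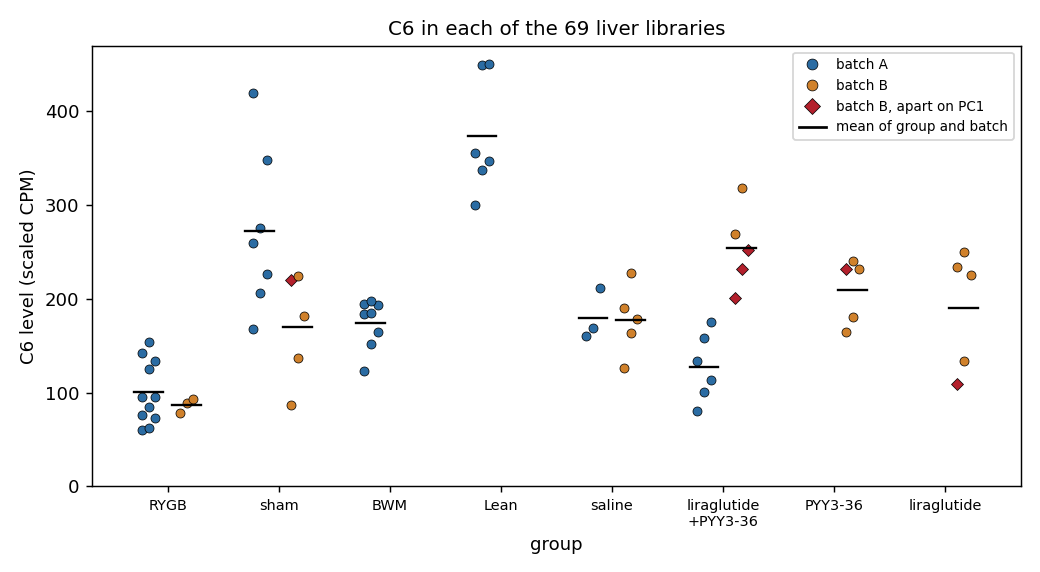
Scaled CPM of C6 in each of the 69 libraries, by group, with batch A in blue, batch B in orange and the 6 batch B libraries apart on the first principal component as red diamonds. Lines mark the mean of each group and batch. The mean of RYGB is lowest in both batches and that of Lean highest, and the batches of liraglutide+PYY3-36 lie on either side of saline.

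The combination group held a difference between its batches. In batch A its 6 libraries had 80.4 to 176 scaled CPM of C6 against 160.0 to 211 in 3 saline libraries, a log2 fold change of -0.50 (adjusted p = 1). In batch B its 5 libraries had 201 to 318 against 126 to 227 in 5 saline libraries, a change of 0.52 (adjusted p = 0.118). The difference between these changes was 1.02 (SE 0.357, p = 0.00589), but it did not pass over all genes (adjusted p = 0.206), and 0% of all genes did. Of these 5 batch B libraries 3 are among the 6 that lay apart. In addition, 6 combination and 3 saline animals of the study were fed for longer, which equals the numbers of batch A libraries in these groups. The labels do not link those animals to a batch. Batch and longer feeding may thus coincide here, and the part of either, or of the libraries apart, in this difference was not tested.

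Across the 36 genes, RYGB vs. sham gave 2 calls, C6 and Mbl1, both lower, which is 5.56% of the members. Of all genes tested 3.12% were called, with 1.58% lower and 1.54% higher, so that a count of 2 sets the list little apart. The direction was less even: 27 of the 36 members had a log2 fold change below 0 and the median was -0.11, against -0.0050 over all genes, of which 49.1% were above 0. Since the members vary together between libraries, the 27 are not separate observations. An unadjusted p under 0.05 was reached by 9 members, and by 12.7% of all genes.

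Among the recognition proteins and proteases of the classical and lectin pathways, 1 of 7 was called and the median was -0.0023. Mbl1 (mannose-binding lectin, chr16:18736154-18742193, plus strand) held 107 scaled CPM at its lowest, 202 at the median and 244 at its highest in RYGB (197 ± 37.2), and 196, 243 and 308 in sham (242 ± 30.6). Of the 14 RYGB libraries 6 lay below every sham library and the others within the range of sham. Mbl1 fell by 0.36 on the log2 scale (SE 0.108, adjusted p = 0.04955), which is at the threshold. The change was -0.30 in batch A (adjusted p = 0.344) and -0.56 in batch B (adjusted p = 0.150), neither of them called when both batches shared a fit. Leaving out any 1 of 54 of the 69 libraries ended the call. Over all 69 of these fits, those that kept the call included, adjusted p-values lay between 0.019 and 0.117. Its relative Mbl2 was at -0.33 (adjusted p = 0.368), while C1r, C1s and C2, which make up the classical protease steps, were at 0.06, -0.24 and -0.0023, and Masp1 and Masp2 at 0.23 and 0.09.

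C3, the hub of the cascade, held 3460.5 to 10292 scaled CPM in RYGB and 2386 to 11762 in sham, with a log2 fold change of -0.25 (adjusted p = 0.519). Cfb, the protease of the alternative convertase, was at -0.0062.

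In the terminal pathway 5 of 6 genes were below 0, with a median of -0.30, and the exception was the first component of the pore. C5 held 331 at its lowest, 562 at the median and 928 at its highest in RYGB and 167, 457 and 724 in sham, with 2 RYGB libraries above every sham library, and its log2 fold change was 0.37 (SE 0.141, adjusted p = 0.178). Beside C6, the pore subunits C8a (-0.27), C8b (-0.32, SE 0.125), C8g (-0.31, SE 0.126) and C9 (-0.29, SE 0.112) lay close together without passing, with adjusted p-values between 0.180 and 0.405. C7, which joins the pore after C6 but is not among the 36, was at -0.16 (adjusted p = 0.916). The log2 fold change of C6 thus lay well outside those of the 5 other late components.

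All 4 complement inhibitors were below 0 and none was called, with a median of -0.32. C4bpa and C4bpb, the chains of C4b-binding protein, were at -0.40 (SE 0.195) and -0.27 (SE 0.124), and Cfi, the protease that inactivates C3b and C4b, was at -0.22 (SE 0.109). Vtn held 2118 to 4971 scaled CPM in RYGB against 898 to 6059 in sham, where the lowest value was that of replicate 12, one of the libraries apart, and its log2 fold change was -0.36 (SE 0.221, adjusted p = 0.549). Without the 6 libraries apart, 5.51% of all genes and 6 members were called, all of these lower: Mbl1, C6, C8a (-0.32), C8b (-0.28), Cfi (-0.29) and Vtn (-0.41, adjusted p = 0.0149). In batch A fitted alone 5.62% of all genes and 6 members were called, namely Mbl1, C6, C8b, C8g, C4bpb and Vtn, again lower. With limma-voom 9.5% of all genes and 11 members were called, of which C5 was higher and Mbl1, C3, C6, C8a, C8b, C8g, C9, Cfi, C4bpb and Vtn were lower.

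Of 8 clotting factors 5 were below 0, the median was -0.05 and none was called. F2 (prothrombin) was at -0.31 (SE 0.170, adjusted p = 0.461) and F13b, the carrier subunit of factor XIII, at -0.62 with a wide error (SE 0.436). The other 6, F5, F7, F9, F10, F11 and F12, lay between -0.10 and 0.17. In the contact system the row called Kng1, whose gene ID RefSeq now names Kng2, was at 0.36 (SE 0.195, adjusted p = 0.455). Its RYGB values ran from 976 to 7028 scaled CPM, and replicates 12 and 13, both from batch B, stood above every sham library. Klkb1, which encodes prekallikrein, was at 0.02.

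The anticoagulants Proc (protein C), Pros1 (its cofactor protein S), Serpinc1 and Serpind1 (heparin cofactor) lay between -0.17 and -0.06. Plg (plasminogen), Serpinf2 (the main plasmin inhibitor) and Cpb2 (a carboxypeptidase that protects fibrin) lay between -0.18 and -0.10. None of these 7 reached an unadjusted p under 0.05.

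**Figure D3:**
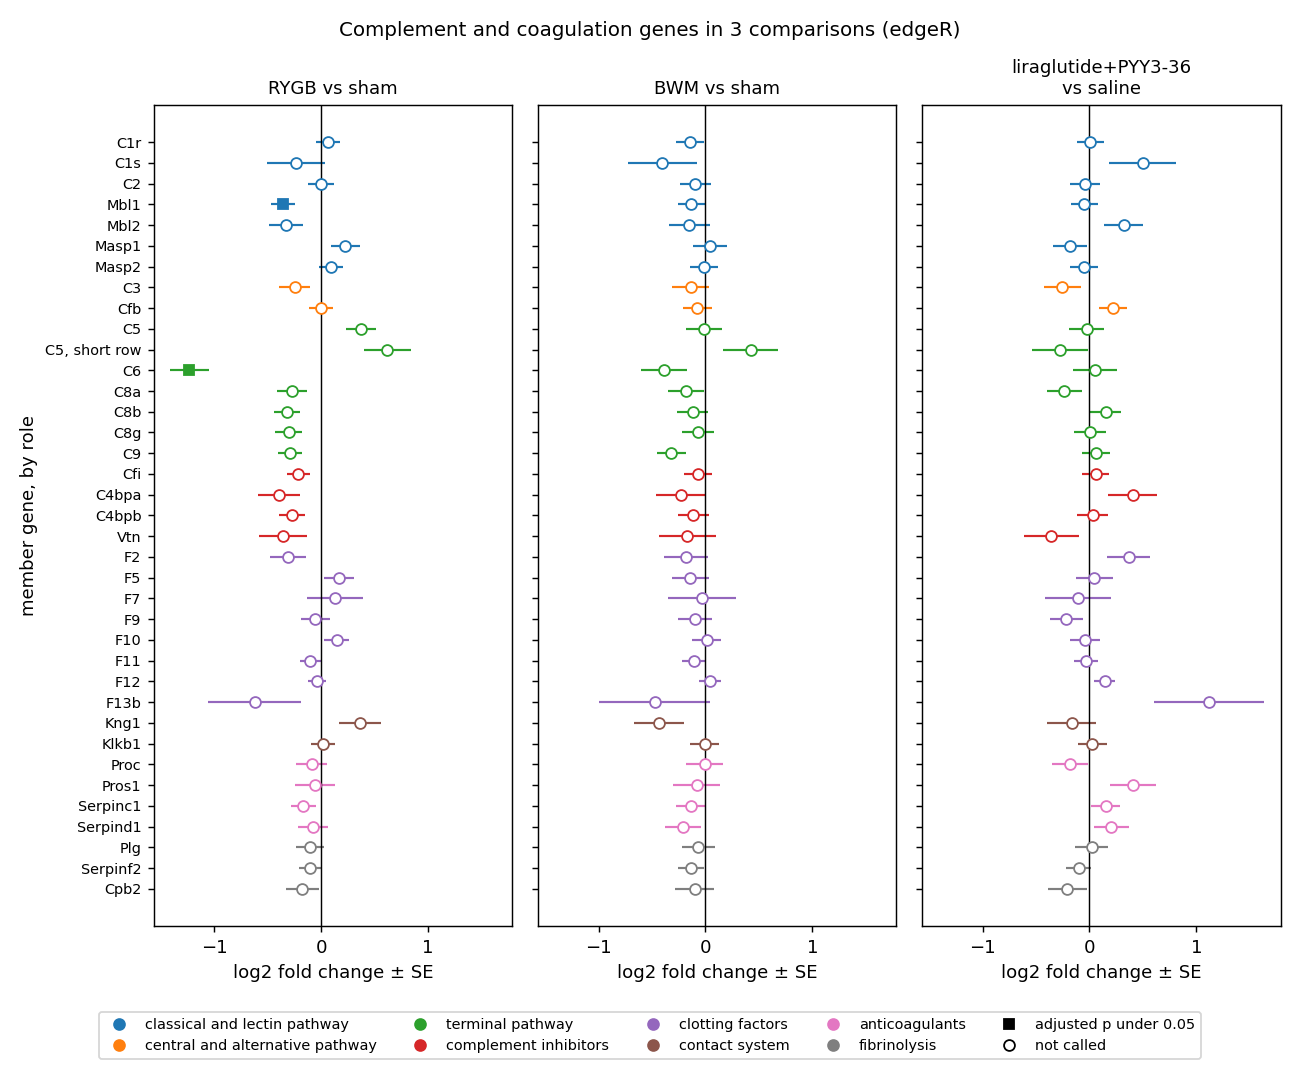
Log2 fold change with its SE for each gene in RYGB vs. sham, BWM vs. sham and liraglutide+PYY3-36 vs. saline, coloured by role, with filled squares for calls at an adjusted p under 0.05. The only squares are Mbl1 and C6 in RYGB vs. sham, most points of BWM vs. sham lie slightly left of 0, and F13b has the widest error in each panel.

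The rest of the pathway, taken from lists of genes outside the 36, gave 1 call in RYGB vs. sham. Of 27 other complement genes 16 were above 0, with a median of 0.04, and Vsig4, a C3 receptor of Kupffer cells, rose by 0.61 (adjusted p = 0.0486). Of 17 other clotting genes 10 were above 0 and none was called. The 3 fibrinogen chains Fga, Fgb and Fgg were at -0.39, -0.31 and -0.41 (adjusted p = 0.214, 0.185 and 0.290), and F3, tissue factor, was at 0.76 (adjusted p = 0.0533). None of 11 other fibrinolysis genes, 8 genes of the vitamin K cycle and protein secretion and 20 liver transcription factors and signalling genes was called, and among the last Foxa1 was at -0.45 (adjusted p = 0.150).

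Markers of cell types moved beside these values. All 11 Kupffer cell markers were above 0 in RYGB vs. sham, of which Vsig4 was called, with summed levels of 279 to 929 scaled CPM in RYGB and 244 to 643 in sham. Of 10 hepatocyte markers 8 were below 0, of which Ahsg was called (-0.41, adjusted p = 0.0223), while Alb was at 0.25. All 6 T and NK cell markers and all 4 red cell and platelet markers were below 0, and of 8 markers of sinusoidal endothelium 4 were. The part of cell composition in the change of C6 and Mbl1 was not tested.

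BWM vs. sham and Lean vs. sham gave 0 calls among the members. In BWM vs. sham 0.042% of all genes were called, 3.18% had an unadjusted p under 0.05 and 1 member did, C9 at -0.32 (p = 0.0199). Nevertheless 33 of the 36 members were below 0, including all 6 of the terminal pathway, all 4 inhibitors and all 4 anticoagulants, with a median of -0.12 against -0.017 over all genes. The members vary together between libraries, so this count is not 36 separate observations. In Lean vs. sham 0.612% of all genes were called and 6.07% had an unadjusted p under 0.05, as did 1 member, C6. Here 22 of 36 were below 0 and the median was -0.05. DESeq2 and limma-voom also gave 0 members in both comparisons.

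RYGB vs. BWM called C6 and no other member, with 1.27% of all genes called (0.768% higher and 0.504% lower), and the members split evenly into 18 above and 18 below 0. An unadjusted p under 0.05 was reached by 3 members and by 7.91% of all genes. The row called Kng1, whose gene ID RefSeq now names Kng2, came next after C6. It held 976 at its lowest, 2178 at the median and 7028 at its highest in RYGB and 1058, 1421 and 1651 in BWM, and 12 of the 14 RYGB libraries lay above all BWM libraries. Its log2 fold change was 0.79 (SE 0.229, adjusted p = 0.0652). DESeq2 called it (adjusted p = 0.02), as did the fit of batch A alone, where it was 0.65 (adjusted p = 0.00133). C5 (0.38, adjusted p = 0.427) and F5 (0.31, adjusted p = 0.683) followed without passing.

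In RYGB vs. Lean 3.88% of all genes were called (1.6% higher and 2.28% lower), with C6 as the 1 member called among the 36 long rows. The short row of C5 also passed, at 0.98 (SE 0.273, adjusted p = 0.02285). That row held 11.3 to 32.6 scaled CPM in batch A RYGB libraries, 1.27 to 1.66 in batch B RYGB libraries and 5.82 to 16.0 in Lean, so that the batch B libraries lay below all Lean libraries, and 7 of the batch A libraries above them. An unadjusted p under 0.05 was reached by 9 of the 36 and by 13.2% of all genes. C8g was at -0.49 (adjusted p = 0.055), F11 at -0.32 (adjusted p = 0.141), the long row of C5 at 0.48 (adjusted p = 0.143) and Masp1 at 0.43 (adjusted p = 0.181). RYGB vs. Lean and RYGB vs. BWM share the 14 RYGB libraries with RYGB vs. sham, and are not independent of it.

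None of the members was called in a drug group against saline, and the 3 drug comparisons share the 8 saline libraries. In liraglutide+PYY3-36, 0.006% of all genes were called (1 gene), 20 members were above and 16 below 0, and the median was 0.01. Only 1 member had an unadjusted p under 0.05, against 10.9% of all genes. This was F13b, at 1.12 (SE 0.517, p = 0.0345, adjusted p = 0.454). In PYY3-36, 0% of all genes were called and 4.95% had an unadjusted p under 0.05, as did 0 members. Of the members 32 were above 0, with a median of 0.18 against 0.036 over all genes, and the lowest p-values were those of Serpind1 (0.39, p = 0.0611) and F13b (1.19, p = 0.0657). In liraglutide, 0.006% of all genes were called and 31 members were above 0, with a median of 0.18 against 0.019. An unadjusted p under 0.05 was found for 4 members, against 6.22% of all genes. The counts of 32 and 31 members above 0 are not separate observations either, since the members vary together between libraries. DESeq2 and limma-voom called 0 members in each of these comparisons.

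F2 had the lowest p of the members in liraglutide. Its level was 1343, 2316, 2606, 3487 and 7885 scaled CPM in the 5 libraries and 1575 at its lowest, 2139 at the median and 2535 at its highest in saline. The highest library was replicate 4, one of those apart, and replicate 2 lay below every saline library. The log2 fold change was 0.71 (SE 0.245, p = 0.0052, adjusted p = 0.566), and without the 6 libraries apart it was 0.30 (adjusted p = 1). Mbl1 (0.38), Serpind1 (0.42) and Cfb (0.36) were the other 3 members with an unadjusted p under 0.05, and without the same libraries they were at 0.23, 0.15 and 0.13.

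Sham vs. saline, the comparison of the control groups, called 0 members and 0% of all genes, with 2 members and 2.58% of all genes at an unadjusted p under 0.05. These were F9 (factor IX, -0.34) and Kng1 (0.47), both at an adjusted p of 0.9999. Of the 36 members 19 were above 0, and DESeq2 and limma-voom called 0 members.

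The change of each member in RYGB vs. sham was then set against its change in liraglutide+PYY3-36 vs. saline, as the difference between them in 1 fit. C6 was called there, with 0.036% of all genes (6 genes, 0.024% higher and 0.012% lower), at -1.29 (SE 0.277, adjusted p = 0.04891), from -1.23 in RYGB and 0.05 in the combination. The call was at the threshold: leaving out any 1 of 45 of the 69 libraries ended it, and so did leaving out the 6 libraries apart (-1.16, adjusted p = 0.152). In batch A the difference was -0.94 (adjusted p = 1, with 0.006% of all genes called), and in batch B -1.49 (adjusted p = 0.0154, with 8.23% called), so the difference was below 0 in both batches and past the threshold in batch B. With each batch fitted alone it was -0.94 and -1.50 and neither passed (adjusted p = 0.637 and 0.294). These are differences between changes against sham and against saline, not between levels of C6 in RYGB and in the combination. Mbl2 (-0.65), F2 (-0.68), C4bpa (-0.80) and F13b (-1.74) were the next lowest in p and none was called (adjusted p = 0.355, 0.364, 0.354 and 0.374).

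More members differed between the batches than in any comparison of treatments. With group in the fit, 21 of the 36 (58.3%) were called, 8 higher and 13 lower in batch B, against 60.6% of all genes (33.7% higher and 26.9% lower), so the members were about as often affected as other genes. The clotting factors F5, F7 and F9 led on the lower side. F5 held 24.1 to 61.2 scaled CPM in batch B and 59.1 to 190.1 in batch A, with 3 batch B libraries above the lowest of batch A, a log2 difference of -1.77 (SE 0.121, adjusted p = 1.233e-19). F7 held 1.55 to 37.6 against 23.7 to 63.4, a difference of -1.45 (SE 0.221, adjusted p = 6.276e-08), and F9 was at -0.81 (adjusted p = 4.803e-09). The short row of C5 did not overlap between the batches, with 0.686 to 3.42 in B against 5.82 to 32.6 in A, a difference of -3.05 (SE 0.200, adjusted p = 2.443e-20). The long row of C5 was at -0.05 (adjusted p = 0.697), so that the 2 rows of this gene differed in their response to batch.

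Members higher in batch B were F13b (0.90, adjusted p = 0.0234), Cfb (0.50, adjusted p = 2.894e-06), Serpinc1 (0.44), Kng1 (0.43), F10 (0.29), Serpinf2 (0.28), C4bpb (0.26) and F12 (0.16, adjusted p = 0.03913). The call of F12 was lost when any 1 of 27 of the 69 libraries was left out, with adjusted p-values up to 0.107. C8a (-0.63), Serpind1 (-0.60), Cpb2 (-0.60) and Plg (-0.56) were lower, as were Masp1, Cfi, C9, C2, Mbl1 and Klkb1. C6 was at 0.04 (adjusted p = 0.852). Without the 6 libraries apart 7 members were higher and 18 lower, with 63.2% of all genes called, and 27 of the 36 kept their sign. Of the 9 that turned, F13b (-0.39, adjusted p = 0.046), C1s (from 0.35 to -0.33, adjusted p = 0.01424) and F2 (from 0.07 to -0.25, adjusted p = 0.009345) were called lower, and C1r, Mbl2, Masp2, C5, C6 and C8b were not called either way. Over the 36 members the batch difference had a correlation of r = -0.27 and rho = -0.28 with the log2 of exon length, and of -0.17 and -0.18 over all 16676 rows. These are correlations across genes of the same libraries, given as a description.

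**Figure D4:**
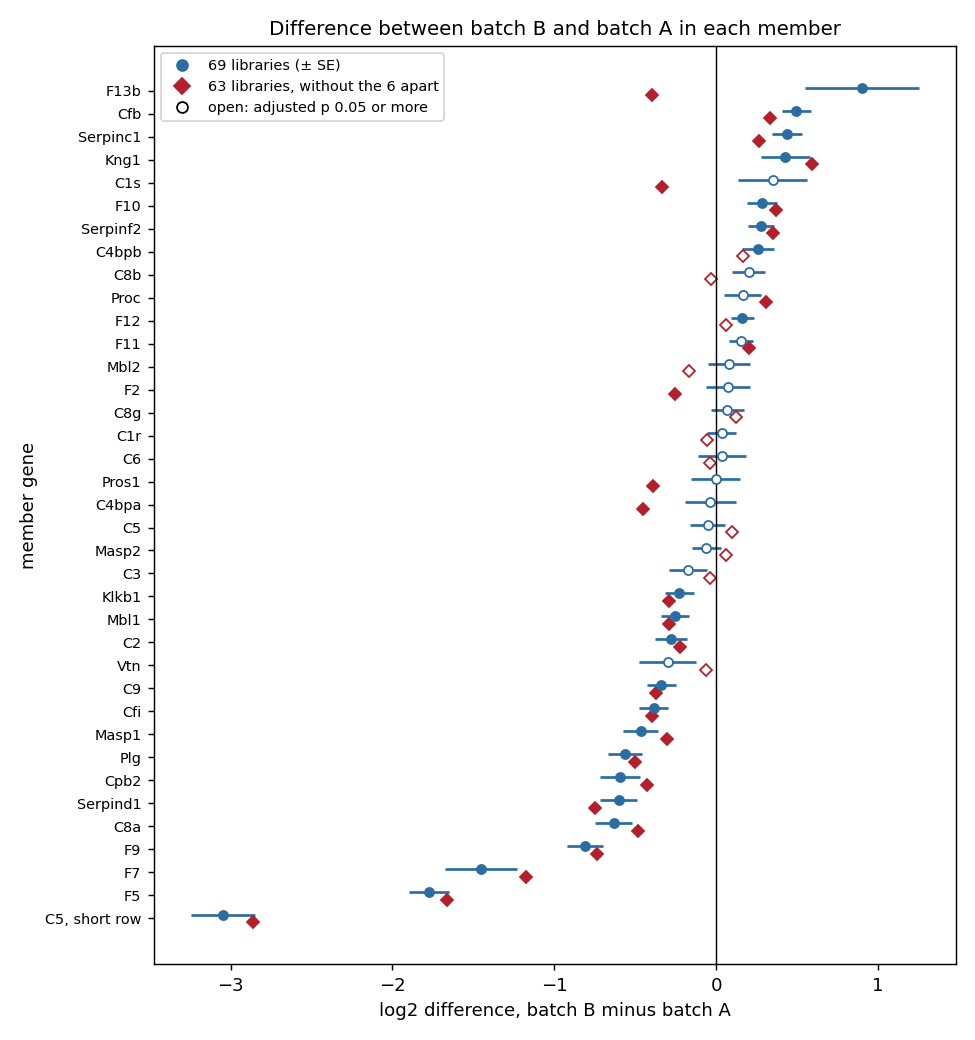
Log2 difference between batch B and batch A for each gene, with its SE over 69 libraries in blue and the value without the 6 libraries apart as red diamonds. Open symbols did not pass an adjusted p of 0.05. The short row of C5, F5, F7 and F9 lie farthest to the left over all libraries and, with Serpind1, without the 6 apart. Of the 36 members 27 keep their side of 0, and of the others F13b and C1s move the farthest.

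The 6 libraries apart came from 4 groups, and in several members they lay outside the range of the other batch B libraries. Against the other 22 batch B libraries, 5 members lay above without overlap, 1 lay below and 30 overlapped. These libraries were picked on all genes, members included, so these values are a description. How many of all genes lay apart in this way was not counted, so the counts do not set the members apart from other genes. F13b held 2746 scaled CPM in sham replicate 12, 2490 in PYY3-36 replicate 5, 1266 in liraglutide replicate 4, and 1894, 730 and 1460 in liraglutide+PYY3-36 replicates 8, 9 and 11. In the other 22 batch B libraries it was 57.8 to 502, and in batch A 143 to 327. The median of the 6 libraries was 10.1 times that of the other 22.

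C1s, the protease that cleaves C4 and C2, held 967 to 2358 in the 6 libraries and 276 to 892 in the other 22. Cfb held 3117 to 4977 against 1591 to 3015, C8b 863 to 1237 against 331 to 856, and Serpinc1 5220 to 7605 against 2581 to 4910. Vtn went the other way, with 563 to 2032 against 2118 to 7148. The same libraries had a smaller share of counts in the 36 genes (2.58 to 3.37%, against 2.79 to 4.52% in the other 22) and higher sums of stellate cell and fibroblast markers (249 to 718 scaled CPM, against 59.6 to 298). Red cell and platelet markers summed to 299 to 1332 against 57.2 to 1050, and the TMM factor was 0.624 to 0.846 against 0.807 to 1.24. The part of cell composition or library make-up in these levels was not tested.

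Some of these libraries are in the combination group, so a drug comparison within batch B includes them. When both batches shared a fit with a value for each group and batch, liraglutide+PYY3-36 vs. saline called 10.3% of all genes in batch B. Of the members 6 were called, all higher: C1s (1.27), Cfb (0.54), C4bpa (0.90), F2 (0.83), F13b (2.31) and Pros1 (0.78), with adjusted p-values between 0.0359 and 0.0451. In batch A of that fit 0% of all genes and 0 members were called. With batch B fitted alone 0 members were called, so the 6 calls depend on the fit. The main fit, with 1 value per group over both batches, called 0 members with the 6 libraries and also 0 without them. There F13b was at 1.12 with them and at -0.10 without. The part of these libraries in the 6 batch B calls was not tested.

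**Figure D5:**
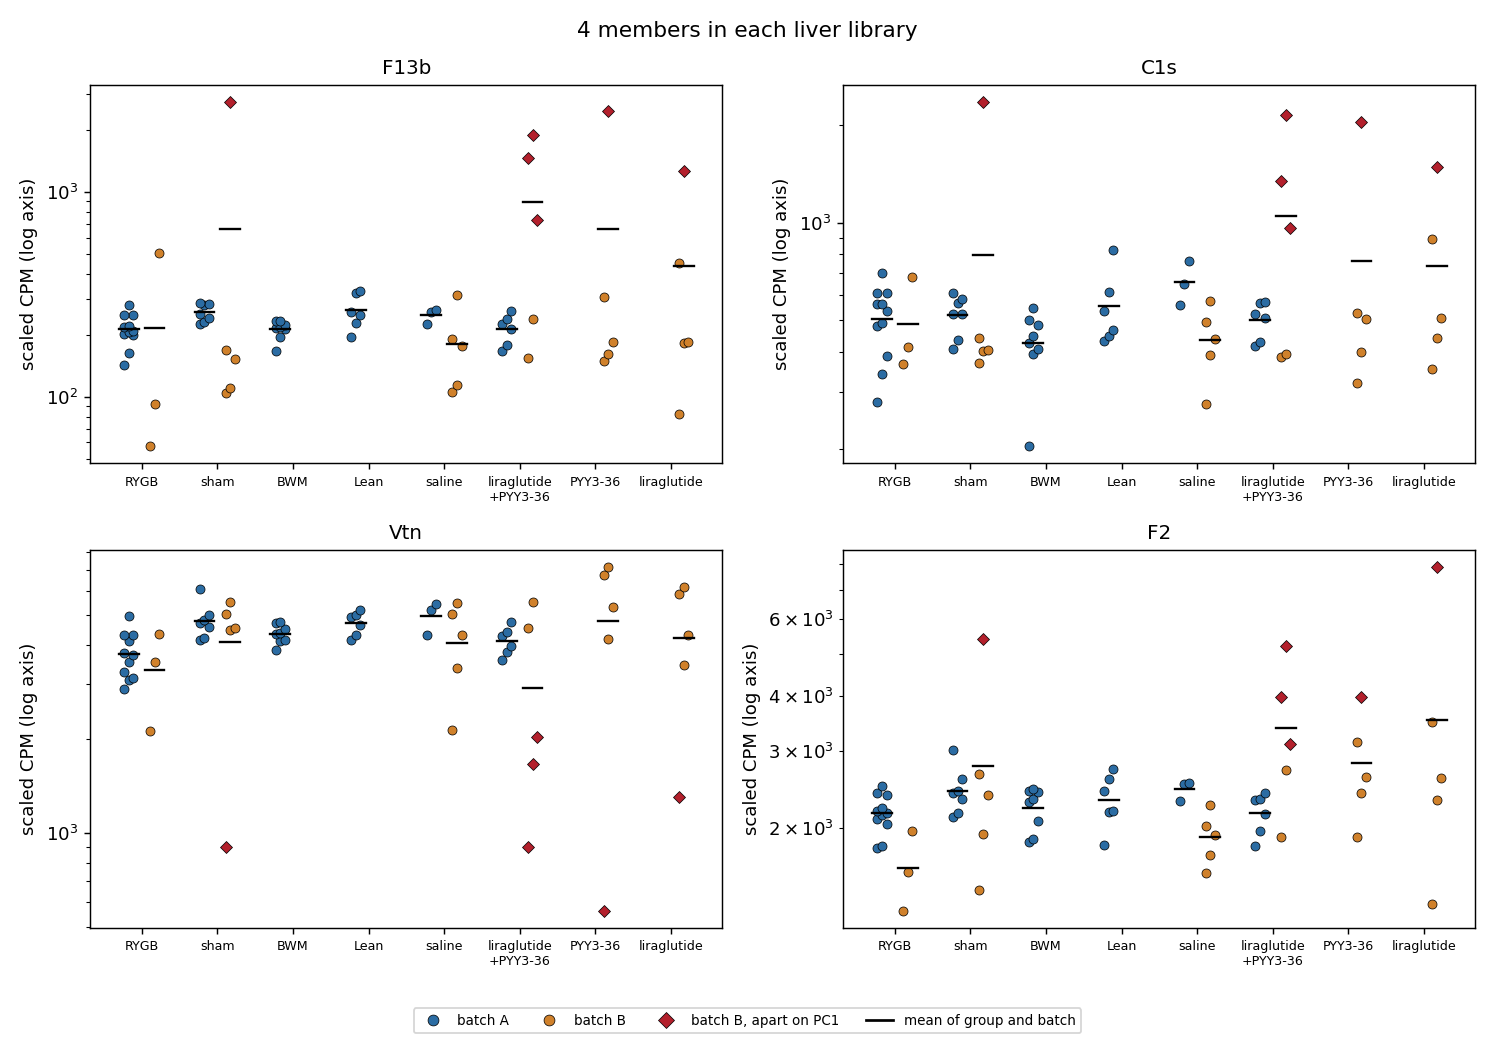
Scaled CPM on log axes of F13b, C1s, Vtn and F2 in each library by group, with colours and symbols for batch A, batch B and the 6 libraries apart, and lines for the mean of each group and batch. The red diamonds lie above all other libraries for F13b and C1s and below them for Vtn, in each of the 4 groups that hold them, and for F2 they overlap the others.

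Within the groups of batch A, most pairs of members rose and fell together from library to library. Over the deviations from the mean of each group and batch, the median correlation of the 630 pairs was 0.46 in the 41 batch A libraries, and 601 pairs (95.4%) were positive. C1r and C1s, which form a complex and lie next to each other on chromosome 4, had the highest r (0.91), followed by C8a and C9 (0.87) and F13b and Plg (0.84). Pairs of the same role had a median of 0.48 and other pairs one of 0.46, close to each other. The pairs that include C6 had a median of 0.34 and a range from -0.11 to 0.65. Such a median was not computed for any other member. In the 28 batch B libraries the median of all pairs was 0.20, with 393 positive pairs (62.4%). The extremes there were Vtn and Cpb2 (0.96) and Masp1 and F13b (-0.93). These batch B values include the 6 libraries apart and were not computed without them, so they are not comparable with those of batch A. All pairs share libraries and their depth, and pairs of other genes were not compared.

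Motifs of HNF4, STAT and C/EBP factors were looked for on both strands of the 28 members with a promoter and of all 33469 RefSeq promoters of 300 bases (GRCr8). The HNF4 motif CAAAGTCCA with up to 1 mismatch was present in C8b, C4bpa and F9 (10.7% of the 28, against 8.67% of all promoters), the STAT motif TTCNNNGAA in 5 members (17.9% against 8.87%), and the C/EBP palindrome TTGCGCAA, a special case of TTGCNNAA, in 0 members (0.17% of all). The Mbl1 promoter held no match to these motifs. A match is a run of letters and does not show that a factor binds there.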

How the data were processed

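Poly(A) RNA of rat liver was sequenced from stranded single-end libraries. The authors used bcl2fastq 2.20.0.422, cutadapt 2.5, STAR 2.7.2b (Rnor_6.0, RefSeq annotation) and featureCounts 1.6.4 on the reverse strand, dividing reads that matched several places or genes. The deposited values are estimated counts, not normalized, of which 15.9% were not whole.

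Rounded counts went into edgeR 4.0.16 under R 4.3.3 (filterByExpr, TMM, robust quasi-likelihood test). All 69 libraries were fitted together with group and batch as terms, and p-values were adjusted over 16676 rows by the method of Benjamini and Hochberg. SE was computed from the fold change and F. The fit was tested on simulated data with 200 changed genes. No 2 libraries were near-identical. For the 6 groups that the study describes, its sample numbers for the sequenced animals equal the numbers of libraries. The labels do not say that each library is a separate animal, and the study does not describe BWM and Lean. The p-values thus measure the spread between libraries.

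The 36 members and the other gene lists were chosen with earlier results of these data known. Values are given in full for members called in any comparison (the 12 lowest adjusted p where more), otherwise for the 4 of lowest p, and for the extremes by level. Alternatives were DESeq2 1.42.0, limma-voom (limma 3.58.1) with quality weights, DESeq2 size factors, no filter, unrounded counts, no batch term, other sets of libraries, each batch alone, the replicate number as a block, no robust estimation, and leaving out each library or the 6 libraries apart. Tests of the batch difference, within-batch values of the difference between effects, and leaving out the 3 batch B RYGB libraries were added after seeing the data. Promoters came from RefSeq (GRCr8), for 28 of 36 members, since the table holds none for Cfb, C2, C8g, C9, Serpind1, C1s, Masp2 and Cpb2. The result for 1 further promoter motif is not reported here.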

Additional observations from a re-analysis of the deposited data

Results flagged for a closer look

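In groups of 4 to 10 libraries, 13 of 180 pairs of a group and a member held 1 library whose gap to the rest was large for the range of the group. Chance gives about 1 in 20 for separate, normally distributed values. The members vary together, saline holds both batches and the shape of scaled CPM was not tested, so that rate may not hold here. Of these, 5 were in PYY3-36 replicate 5, one of the libraries apart, at 2050 scaled CPM for C1s, 251 for C8a, 1870 for C4bpa, 2490 for F13b and 647 for Pros1, against 320 to 527 for C1s and 150 to 307 for F13b in the other 4. Liraglutide replicate 4, also apart, stood out in C3 (5840) and F12 (1360). Lean replicate 4 stood out in C1r (926) and Cfb (2170). The remaining values were 205 for C1s in BWM replicate 2, 754 for Proc in BWM replicate 3, 3180 for Kng1 in saline replicate 5 and 377 for Pros1 in saline replicate 9.

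The log2 fold change of C6 in RYGB vs. sham differed from that in liraglutide+PYY3-36 vs. saline by -1.29 in a test of the difference itself (edgeR, adjusted p = 0.04891).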

How the results depend on the processing

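C6 in RYGB vs. sham kept its direction under all 14 other settings and its call in 13, at -0.97 (adjusted p = 0.289) in batch B fitted alone, and lay between -1.31 and -1.11 when 1 library was left out. The number of members called there was 2, and 11 with limma-voom, 6 in batch A alone and without the 6 libraries apart, 0 in batch B alone, and 1 with no filter, unrounded counts, no batch term, the 55 libraries of 6 groups, without the 3 batch B RYGB libraries and with the replicate block (1 to 2 with 1 library left out). In RYGB vs. BWM it was 1, and 3 with limma-voom and 2 with DESeq2, no batch term, batch A alone, without the 6 libraries apart and with the block (1 to 2; Kng1 joined without RYGB replicate 8 or 14, PYY3-36 replicate 5 or sham replicate 12). In RYGB vs. Lean it was 1, and 9 with limma-voom and in batch A alone, 5 without the 6 libraries apart, and 2 with DESeq2 and with only the groups compared (1 to 2; C8g joined without RYGB replicate 2 or 13, liraglutide replicate 2, PYY3-36 replicate 1 or 5 or sham replicate 12). The short row of C5 lost its call there without RYGB replicate 11 or any of Lean replicates 1 to 5 (adjusted p up to 0.0988), and with no batch term (0.76, adjusted p = 0.884). In the difference between the effects of RYGB and the combination it was 1, and 0 with no filter, the 55 libraries, only the groups compared, either batch alone, without the 6 libraries apart, without the 3 batch B RYGB libraries and with the block (0 to 1). Over all genes RYGB vs. sham called 520, and 24 to 1585 under other settings. The number was 212 in RYGB vs. BWM (152 to 833 under other settings) and 647 in RYGB vs. Lean (342 to 1705). In the difference between effects it was 6 (1 to 36). Outside RYGB vs. sham the share of all genes called in each setting is not given. A change in the member count there is thus not a result about the members. The cause of these changes was not tested.

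Directions turned as follows. In RYGB vs. sham the short row of C5 was at -0.0049 in batch B alone. In the combination vs. saline C6 was at -0.17 with limma-voom, -0.51 in batch A alone, -0.090 without the 6 libraries apart and between -0.061 and 0.14 with 1 library left out, and F13b at -0.23 in batch A alone and -0.10 without the 6. In liraglutide vs. saline C6 lay between -0.035 and 0.21 with 1 library left out. In sham vs. saline C6 was at -0.053 in batch B alone. In the difference between effects F2 was at 0.0094 in batch A alone and F13b at 0.11 without the 6. Between batches, without the 6, C8b was at -0.032, C1s at -0.33 (adjusted p = 0.01424), F2 at -0.25 (adjusted p = 0.009345), and C1r, Mbl2, Masp2, C5 and C6 turned without a call. F13b was at -0.65 with limma-voom, -0.39 without the 6 and -0.30 with the block, and its call was lost without sham replicate 12 (0.26), RYGB replicate 14 or combination replicate 8. Other batch calls were lost as well, those of Kng1 (0.27), F10 (0.21) and C4bpb (0.20) without RYGB replicate 13, that of Klkb1 without sham replicate 8 (-0.20), and that of F12 in 27 of 69 fits without 1 library and in 5 of 10 other settings.

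Replicate numbers did not pair the libraries: in RYGB and sham, 2 of 12 correlated best with their own number (r from -0.46 to 0.20). Batch B RYGB had 3 libraries of low depth, and 5 libraries in the single-drug groups left errors of up to 0.638 for F13b.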
